A study of Rattus norvegicus with 14 samples.

Results

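Crx, Otx2, Nrl, Neurod1 and Neurod4 are transcription factors that act in the differentiation of photoreceptors or other retinal neurons. Of these 5 genes, 4 were also abundant in the adult rat pineal gland. The genes were chosen by their symbols in the deposited table, where all 5 were found among 16472 genes, each with 1 transcript and with no other gene of the table overlapping it. Expression had been measured by RNA sequencing in Sprague-Dawley rats aged 6 to 8 weeks and kept on a cycle of 14 h light and 10 h dark. Pineal glands and retinas were taken at zeitgeber time (ZT, hours after lights on) 1, 7 and 13 in the light and at ZT15, 19 and 23 in the dark, with 1 library for each tissue and time from a pool of 10 animals, so there were 6 pineal and 6 retina libraries. The 2 mixed libraries, at ZT7 and ZT19, held equal amounts of RNA from 15 tissues of 3 animals, with the retina among the tissues and the pineal gland not. The submitters state that they sought rhythmic transcripts and transcripts typical of the pineal gland. Values are FPKM, fragments per transcript scaled by transcript length and by library, a unit that allows levels of different genes to be ranked. With 1 library per tissue and time, a value at a single time has no error of its own.

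Pinealocytes and retinal photoreceptors are related cells that share much of their developmental programme. The homeobox factor Otx2 acts early in both lineages and turns on Crx, a homeobox factor of the same family that drives genes of phototransduction in the eye and genes of melatonin synthesis in the pineal gland. Nrl, a leucine zipper protein of the Maf family, works with Crx to make a photoreceptor a rod rather than a cone. Neurod1 and Neurod4 are basic helix-loop-helix (bHLH) factors that bind DNA as dimers with E proteins, and both act in the differentiation of retinal neurons.

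In rn4 coordinates of the deposited table, Crx (gene ID 60446) lay at chr1:76190656-76196333 and Otx2 (305858) at chr15:24622851-24632435. Nrl (290221) lay at chr15:33651846-33653574, Neurod1 (29458) at chr3:62224644-62227936 and Neurod4 (288821) at chr7:8534957-8547130. RefSeq promoters of the GRCr8 assembly were found for 4 of the 5 genes. Those of Crx, which was high in both tissues, and of Nrl, which was high in the retina and near 0 in the pineal gland, are shown as the 250 bases before the annotated gene start, both on the minus strand, Crx at chr1:85681853-85682102 and Nrl at chr15:32981443-32981692. The capitals mark TAATCC, the letters preferred by Otx and Crx proteins, on either strand.
Crx: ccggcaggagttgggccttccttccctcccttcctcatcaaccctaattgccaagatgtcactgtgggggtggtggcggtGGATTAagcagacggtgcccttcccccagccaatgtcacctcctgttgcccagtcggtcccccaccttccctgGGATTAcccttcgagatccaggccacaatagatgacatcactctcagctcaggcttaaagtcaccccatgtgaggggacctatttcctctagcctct
Nrl: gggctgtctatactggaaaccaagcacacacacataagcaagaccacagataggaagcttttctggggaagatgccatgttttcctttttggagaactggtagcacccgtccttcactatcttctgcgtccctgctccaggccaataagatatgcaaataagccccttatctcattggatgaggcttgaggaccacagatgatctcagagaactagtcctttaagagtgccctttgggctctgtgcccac
Both TAATCC matches in the Crx promoter lie on the opposite strand and start 170 and 97 bases before the gene start. The Nrl promoter has no match, and neither do those of Neurod1 and Neurod4, while 6.34% of 33469 rat promoters of this length hold the letters. CANNTG, the E-box that bHLH dimers bind, occurs once in Crx, Nrl and Neurod1 and not in Neurod4, against 65.5% of all promoters. TGCTGA, the core of the Maf recognition element, occurs once in Neurod1, where it overlaps the E-box, and 2 times in Neurod4, against 15.1% of all promoters. TGACGT, part of the cyclic AMP response element, is in none of the 4, against 6.95% of all promoters. All motifs were searched on both strands, and a match is a description of the letters alone.

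The tissue labels were checked against marker genes. Summed FPKM of 5 pinealocyte markers lay between 3982 and 4601 in pineal libraries and between 27.0 and 80.7 in retina libraries, and the rod marker Gnat1 lay between 0.944 and 1.60 FPKM in pineal and between 2294 and 3753 in retina libraries. All 5 markers of the choroid plexus, the brain epithelium that makes cerebrospinal fluid, were present in pineal libraries, with a sum from 709 at ZT23 to 3674 at ZT15. The sum of 7 brain neuron markers in pineal libraries, made up mostly of Slc17a7 and Slc12a5, ran from 407 at ZT19 to 549.7 at ZT7. Of these markers the cerebellar genes Gabra6 (1.73 FPKM, at most 0.0392 in the others) and Cbln1 (2.66, at most 1.06) were highest in the pineal library of ZT13 and Neurod2 (0.537) in that of ZT19, with Gabra6 at 20.8 and 21.5 in the mixed pools. The sum of 4 lens markers in retina libraries ranged from 44.5 at ZT7 to 640 at ZT19. In an estimate from rarely expressed olfactory receptor transcripts, 1 fragment in 1 kb was worth 0.0339 to 0.0527 FPKM in pineal libraries. The comparisons of tissues below treat the libraries of a tissue as its replicates, so their p-values measure the spread between pools, times of day included. In the tests over the day a p-value measures the spread around a fitted daily curve or around the means of light and late dark. That spread is estimated from both tissues together. In whole tissue fewer cells of a type and less RNA per cell cannot be told apart.

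Crx, Otx2, Neurod1 and Neurod4 were high in both tissues, while Nrl was high in the retina alone of these 2. In the pineal gland Crx was at 214 ± 49.1 FPKM (SD, n = 6), Neurod4 at 174 ± 59.7, Neurod1 at 163 ± 25.5 and Otx2 at 147 ± 35.7, ranks 74, 95, 109 and 124 of 16472 genes. In the retina the order was Crx at 238 ± 26.1 FPKM (SD, n = 6), Nrl at 142 ± 21.6, Otx2 at 118 ± 4.36, Neurod1 at 115 ± 23.2 and Neurod4 at 48.9 ± 4.78, ranks 37, 90, 123, 130 and 441. In the pineal gland the ranges of all 4 overlap, with Neurod4 above Crx in 3 of 6 libraries, and so do those of Nrl, Otx2 and Neurod1 in the retina, so the order of these neighbours is within their spread. Between the tissues 3 of the 5 genes passed the test (limma on log2(FPKM + 1), Benjamini-Hochberg adjusted p below 0.05 over 11656 genes). Neurod1 and Neurod4 were higher in the pineal gland, as were 36.9% of all genes tested, and Nrl was lower, as were 32.0%. Shares this large among all genes make a passed test between the tissues common, so the sizes tell more than the counts.

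**Figure D1:**
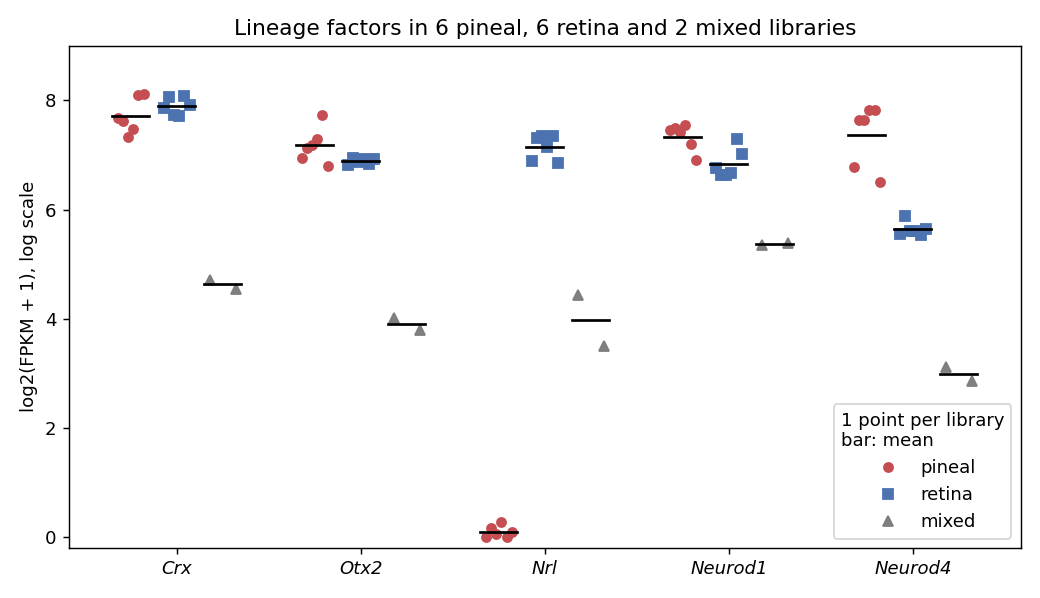
Level of each factor as log2(FPKM + 1), with 1 point per library (6 pineal, 6 retina, 2 mixed) and a bar at the mean. Nrl lies near 0 in all pineal libraries, Neurod4 is separated between pineal and retina, and Crx, Otx2 and Neurod1 overlap between them.

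Nrl showed the largest tissue difference of the 5. Its pineal values were listed at 0 at ZT1 and ZT19, 0.0413 FPKM at ZT13, 0.0557 at ZT23, 0.122 at ZT7 and 0.208 at ZT15, which is a few fragments at most by the estimate above. In the retina it ranged from 115 FPKM at ZT23 over a median of 149 to 162 at ZT13. The groups do not overlap, and the fitted difference was -7.05 on the log2(FPKM + 1) scale (SE 0.139, adjusted p = 3.13e-15), a size that depends on the pseudocount and reached -9.81 with a pseudocount of 0.1. The rod phosphodiesterase subunit Pde6b, which Nrl is known to drive, was also low in the pineal gland, at a median of 0.304 FPKM against 379 in the retina. A link between the low levels of Nrl and Pde6b was not tested. Nrl passed the filter of the time of day tests only through its retina values, so its pineal values over the day are not read.

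Neurod4 was the member with the largest pineal excess over the retina. Its pineal values were 109 FPKM at ZT1, 199 at ZT7, 198 at ZT13, 226 at ZT15, 225 at ZT19 and 89.6 at ZT23. Its retina values ran from 45.3 FPKM at ZT19 over a median of 47.6 to 58.3 at ZT7. The lowest pineal value was thus above the highest retina value, and the difference was 1.73 log2 units (SE 0.208, adjusted p = 2.51e-06), with a range of 1.40 to 1.91 over 21 alternatives.

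Neurod1 was higher in the pineal gland by a smaller amount. Its pineal values were 176, 179, 170.0, 186, 147 and 119 FPKM at ZT1, 7, 13, 15, 19 and 23. Its retina values were 107, 97.9, 98.7, 101, 156 and 129 FPKM at the same times. Pineal values exceeded retina values at ZT1 to ZT15 and were below them at ZT19 and ZT23, so the ranges overlap. The difference of the means was 0.50 log2 units (SE 0.135, adjusted p = 0.00384), and it did not pass after quantile normalization (0.13, adjusted p = 0.413).

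Neither homeobox factor passed the test between the tissues. Crx ranged from 160 to 275 FPKM in the pineal gland and from 208 to 270.0 in the retina, a difference of -0.17 log2 units (SE 0.137, adjusted p = 0.277). Otx2 ranged from 110 to 212 FPKM in the pineal gland and from 112 to 122 in the retina, a difference of 0.29 (SE 0.126, adjusted p = 0.0505). These results turn on the scaling of the libraries: with quantile normalization the Crx difference was -0.61 (adjusted p = 0.000607) and that of Otx2 was -0.08 (adjusted p = 0.65). The Otx2 difference passed when pineal ZT1 (0.34, adjusted p = 0.0324) or pineal ZT23 (0.37, adjusted p = 0.0116) was left out, and without a mean-variance trend (adjusted p = 0.0478). Otx2 is also known from the choroid plexus. The choroid plexus markers were highest in the pineal library of ZT15 (Ttr at 3566 FPKM against 664 to 1152 in the others), where Otx2 was at 156 FPKM, and without that library the Otx2 difference was 0.27 (adjusted p = 0.0926).

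Ratios within a library do not depend on how libraries were scaled to each other. The ratio of Neurod4 to Crx was 0.326 to 1.28 in the pineal gland and 0.168 to 0.228 in the retina, without overlap. The ratio of Neurod1 to Neurod4 was 0.652 to 1.61 in the pineal gland and 1.68 to 3.44 in the retina, again without overlap. Otx2 to Crx (0.399 to 0.907 against 0.417 to 0.581) and Neurod1 to Crx (0.431 to 1.07 against 0.369 to 0.577) overlapped between the tissues. So the pineal gland carried more Neurod4 relative to the other bHLH factor and to Crx in every library of these 12.

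**Figure D2:**
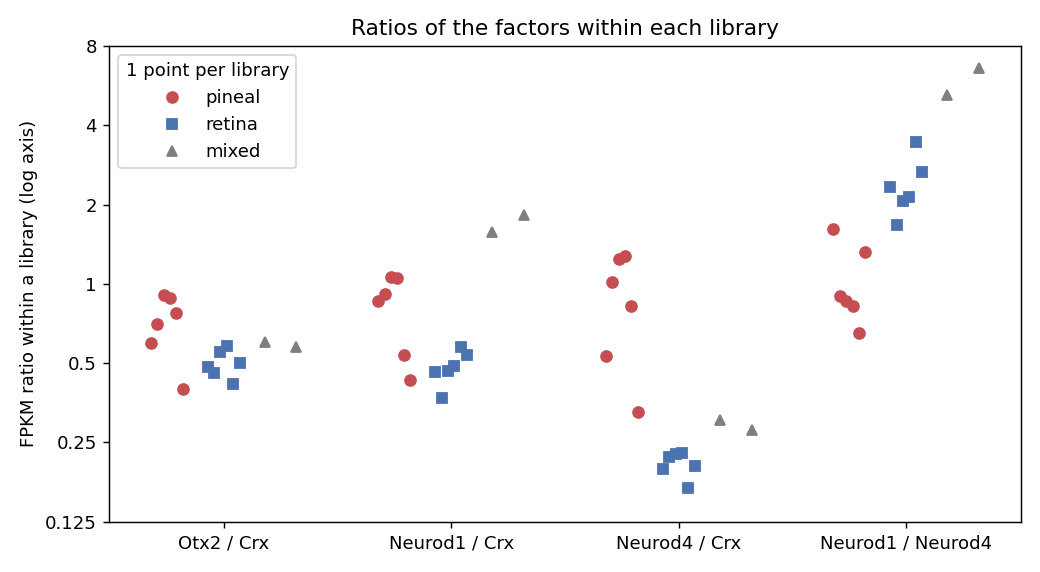
FPKM ratios between factors within each library on a log axis, 1 point per library of the pineal gland, retina and mixed pools. Neurod4 / Crx and Neurod1 / Neurod4 separate the 6 pineal from the 6 retina libraries, and the other 2 ratios overlap.

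Against the mixed pools, Crx, Otx2, Neurod1 and Neurod4 were higher in both other tissues, and Nrl was higher in the retina and lower in the pineal gland. All 10 differences passed the test and kept call and direction in each of 20 alternatives, and both sets share the same 2 mixed libraries. Of all genes, 19.8% were higher and 45.0% lower in the pineal gland than in the mixed pools, and 18.4% were higher in the retina. In the mixed pools of ZT7 and ZT19, Crx was at 25.2 and 22.4 FPKM, Otx2 at 15.2 and 12.9, Nrl at 20.6 and 10.3, Neurod1 at 39.8 and 41.0 and Neurod4 at 7.66 and 6.24. The pineal excess was 4.38 log2 units for Neurod4 (SE 0.294), 3.27 for Otx2 (SE 0.178), 3.09 for Crx (SE 0.193) and 1.97 for Neurod1 (SE 0.190), with Nrl at -3.87 (SE 0.197). The retina excess was 3.26 for Crx, 3.18 for Nrl, 2.98 for Otx2, 2.65 for Neurod4 and 1.47 for Neurod1, with SEs from 0.178 to 0.294. The median of all genes was -0.25 in the pineal comparison and -0.30 in that of the retina, and with quantile normalization it was 0.22 and 0.19. The share of passing genes that were higher in the pineal gland was 30.5%, against 60.3% with quantile normalization. For the retina it was 28.3%, against 59.6% with that normalization.

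The mixed pools held the retina as 1 of 15 tissues, so a gene made in the retina alone would lie near 6.67% of its retina level if fragments were shared equally. At ZT7 the mixed level was 9.50% of the retina level for Crx, 12.4% for Otx2, 13.2% for Nrl, 13.1% for Neurod4 and 40.6% for Neurod1. At ZT19 it was 8.29% for Crx, 11.5% for Otx2, 6.41% for Nrl, 13.8% for Neurod4 and 26.3% for Neurod1. Crx, Otx2, Neurod4 and Nrl at ZT7 lay within the range of 26 genes of rod photoreceptors (8.57% to 17.6%, median 10.9%). At ZT19 the rod genes ranged from 7.02% to 17.0% with a median of 9.44%, and Nrl lay just below them. Neurod1 lay above every rod gene and above the 8 cone genes at both times. Markers of the pituitary, a tissue of the pools, summed to 4900 to 6315 FPKM there, and the cerebellar Gabra6 to the values above. Neurod1 is known from both tissues, and their part in its mixed level was not tested.

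**Figure D3:**
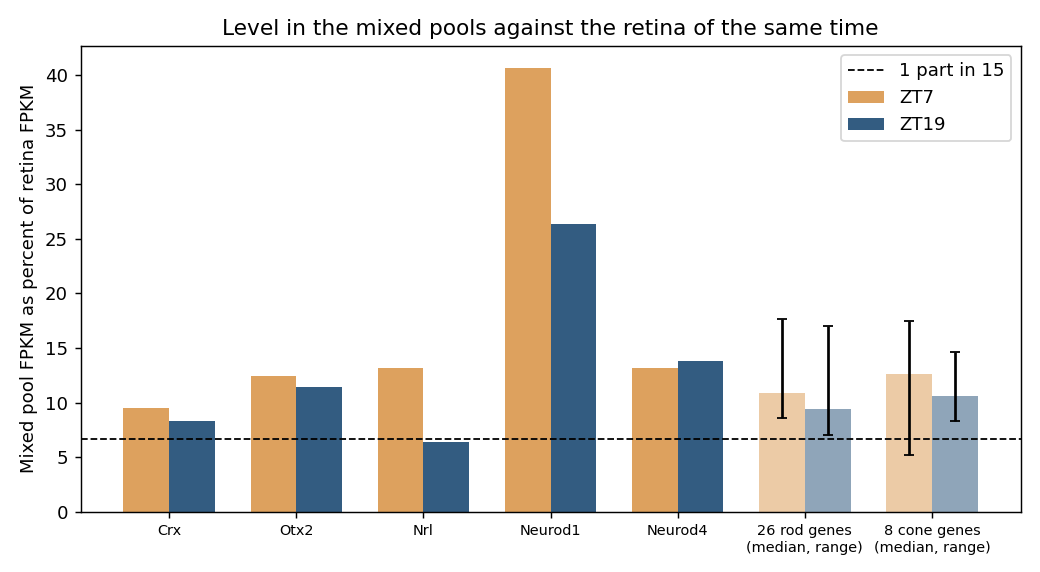
Level in the mixed pool as percent of the retina level of the same time, at ZT7 and ZT19, for each factor and for 26 rod and 8 cone genes (bar: median, line: range). The dashed line marks 6.67%, 1 part in 15, and Neurod1 stands above both gene lists.

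Over the day in the pineal gland, the 4 expressed factors followed different courses, and 1 of them, Neurod4, passed the test for a 24-h rhythm. The test was a moderated F test of a cosine and sine fitted per tissue (limma, 10416 genes), and 20.7% of all genes passed it in the pineal gland, a share from which 1 of 4 cannot be set apart. At an unadjusted p below 0.05 there were 2 of these 4, Crx and Neurod4, and 37.4% of all genes. No member passed in the retina, where 1.02% of genes did, or at an unadjusted p below 0.05, where 21.6% of genes did. The difference between the rhythms of both tissues passed for 4.95% of all genes and for none of the 4 in limma. At an unadjusted p below 0.05 it held for 2, Neurod1 (adjusted p = 0.139) and Neurod4 (adjusted p = 0.165).

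**Figure D4:**
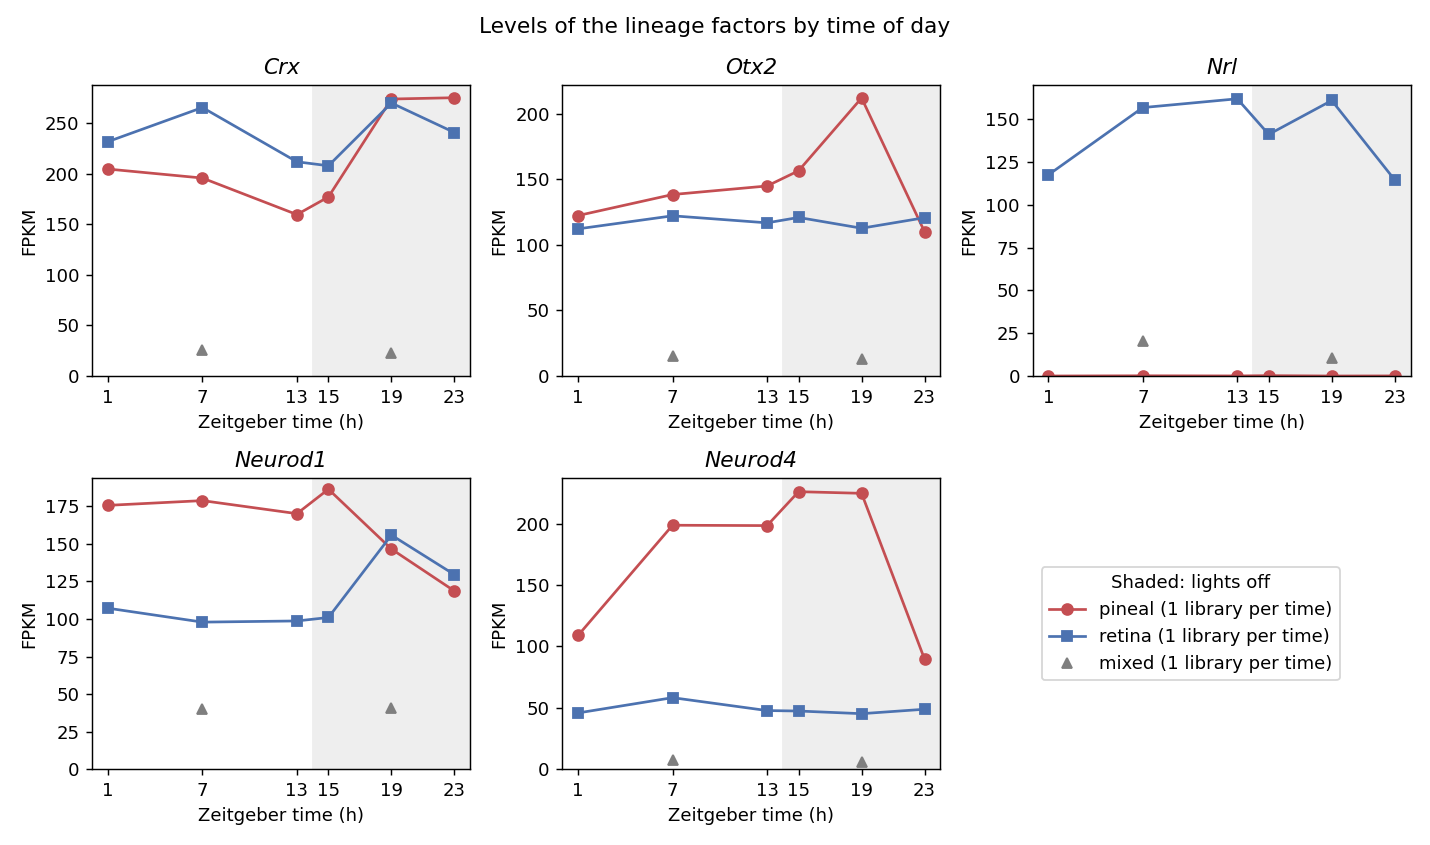
FPKM of each factor at 6 zeitgeber times in the pineal gland and retina and at 2 times in the mixed pools, with 1 library per point and the dark hours shaded. Pineal Neurod4 is low at ZT23 and ZT1, pineal Crx is high at ZT19 and ZT23, and pineal Otx2 is highest at ZT19.

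Pineal Neurod4 was high from ZT7 to ZT19 and low on both sides of lights on. It fell by 60.1% from ZT19 to ZT23, from 225 to 89.6 FPKM, and was higher by 82.3% at ZT7 than at ZT1. The fitted peak was at ZT12.9 with a peak to trough difference of 1.15 log2 units (SE 0.253, adjusted p = 0.0254). The call was lost without the filter on low values (adjusted p = 0.0553), with median ratio scaling (0.0554) and when the pineal libraries were fitted alone (0.116). It was also lost without pineal ZT1 (0.0701) or pineal ZT23 (0.0958). The difference from the retina's rhythm passed only without pineal ZT7 (1.75 log2 units, adjusted p = 0.0374) or pineal ZT19 (1.18, adjusted p = 0.023) among the alternatives. In the retina Neurod4 stayed between 45.3 and 48.9 FPKM apart from 58.3 at ZT7.

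Pineal Crx ran from 205 FPKM at ZT1 and 196 at ZT7 to a low of 160 at ZT13, then 177 at ZT15, 274 at ZT19 and 275 at ZT23. Both late dark values were above all 4 others. Late dark (ZT19 and ZT23) against light (ZT1, 7 and 13) gave 0.56 log2 units (SE 0.165, adjusted p = 0.0626), which did not pass. In this contrast 7.28% of all genes passed in the pineal gland, and 41.8% of them were higher in late dark, a share of 61% with quantile normalization and 64% with median ratio scaling. The median of all genes was -0.12 in it. Crx passed with quantile normalization (0.57, adjusted p = 0.0474), with median ratio scaling (0.69, 0.0204), without a mean-variance trend (0.04) and without pineal ZT1 (0.63, 0.041). Its fitted rhythm peaked at ZT22.2 with a peak to trough difference of 0.70 (adjusted p = 0.0734), and passed without pineal ZT1 (0.0244) or pineal ZT7 (0.0202). Retina Crx was 232, 266, 212, 208, 270.0 and 241 FPKM over the 6 times, with highs at mid-day and mid-night, and a late dark difference of 0.12 (adjusted p = 0.819).

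Pineal Otx2 stood at 122 FPKM at ZT1, 138 at ZT7, 145 at ZT13, 156 at ZT15 and 212 at ZT19, and at 110 at ZT23. The fall from ZT19 to ZT23 was 48.1%, and these 2 late dark libraries were thus the highest and the lowest of the 6. The late dark contrast was 0.18 (SE 0.224, adjusted p = 0.656), and it turned to -0.29 without ZT19 and passed at 0.65 without ZT23 (adjusted p = 0.0472). The fitted rhythm had a peak to trough difference of 0.56 (SE 0.227, adjusted p = 0.184), and it passed without pineal ZT7 (1.196, adjusted p = 0.0494). Retina Otx2 was the steadiest of the 5 factors, between 112 and 122 FPKM, with a coefficient of variation of 3.71% over 6 libraries against 24.2% in the pineal gland.

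Neurod1 gave opposite signs in the tissues, though none of its tests over the day passed. In the pineal gland it was lower by 0.40 log2 units in late dark than in light (SE 0.143, adjusted p = 0.107), with both late dark values below all 4 others. In the retina it was higher by 0.49 in late dark (SE 0.143, adjusted p = 0.286), with both late dark values above all 4 others. In the retina 0.00960% of genes passed this contrast, 1 gene, and of the 5 factors none did in limma. At an unadjusted p below 0.05 it held for Neurod1 of the 5 and for 11.9% of all genes. The retina library of ZT19, where Neurod1 was highest, also held the most lens RNA (Crygc at 541 FPKM against 21.3 to 208 in the others). Without that library the difference was 0.35, and without ZT23, the other late dark library, it was 0.62. Leaving out the higher late dark value lowers the difference whatever the lens RNA, so a part of lens RNA was not tested. In the pineal gland the library of ZT13, where Gabra6 and Cbln1 were highest, had Neurod1 at 170.0 FPKM, and without it the late dark difference was -0.42 (adjusted p = 0.173).

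Nrl in the retina was 118 FPKM at ZT1, 157 at ZT7, 162 at ZT13, 141 at ZT15, 161 at ZT19 and 115 at ZT23. Its 2 lowest values were those on both sides of lights on, which is also where pineal Neurod4 was lowest. The fitted rhythm peaked at ZT12.2 with a peak to trough difference of 0.42 (SE 0.153, adjusted p = 0.241) and did not pass. In the mixed pools Nrl was 20.6 FPKM at ZT7 and 10.3 at ZT19, a difference with no replicate check.

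**Figure D5:**
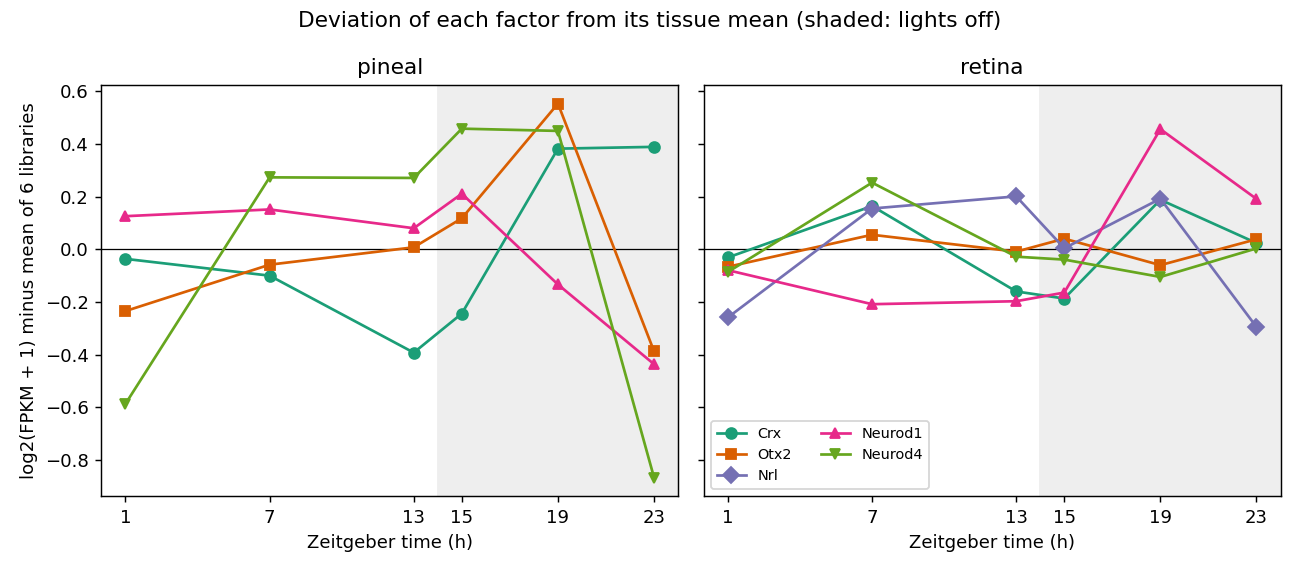
Deviation of each factor from the mean of its 6 libraries, as log2(FPKM + 1), over zeitgeber time in the pineal gland (left, without Nrl) and the retina (right), with the dark hours shaded. Pineal Crx and Neurod1 lie on opposite sides of their means at all 6 times, and Otx2 and Neurod4 both fall between ZT19 and ZT23.

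Across the 6 pineal libraries, Pearson's r of log2 levels was 0.815 between Otx2 and Neurod4 and -0.820 between Crx and Neurod1. It was 0.083 between Crx and Otx2, where the rank correlation was -0.371. In the retina the same pairs gave 0.713 for Otx2 and Neurod4, 0.571 for Crx and Neurod1 and -0.128 for Crx and Otx2. With 6 points that share time of day and library depth, these are descriptions.

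The genes whose pattern was most like each factor were ranked by Pearson's r over all 14 libraries, among 8344 genes with a range of at least 1 log2 unit. For Crx these were Rgs9 (0.984), a regulator that speeds the shut-off of phototransduction, Rbp3 (0.978), the retinoid carrier between photoreceptors and pigment epithelium, Ankrd44, Col23a1 and LOC361646. For Otx2 they were Rasgrf2 (0.973), Trpm1, the cation channel of ON bipolar cells, Impg1, a matrix protein around photoreceptors, and Gkap1. For Nrl they were the eye field homeobox gene Six3 (0.999), the rod phosphodiesterase subunit Pde6b (0.998), Amigo2, Hcn4 and Sfrp2. For Neurod1 they were Stk40 (0.977), Baz2a, Anp32e, the vesicular glutamate transporter Slc17a7 (0.948) and Fabp12. For Neurod4 they were B3galt2 (0.983), Cabp5 (0.981), a calcium-binding protein of bipolar cells, Lrp11, Slit2 and Odz4. These patterns are mostly differences between the 3 kinds of tissue, which all 14 points share.

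Within the 6 pineal libraries, 1212 genes had a range of that size, and the nearest genes were others. Neurod4 itself had such a range (1.33 log2 units), while Otx2 (0.941), Crx (0.782) and Neurod1 (0.648) did not. The highest of 1212 values of r over 6 points is high by selection alone, so these too are descriptions. Neurod4 ran with Kit (r = 0.989), a receptor tyrosine kinase that was at 60.5 FPKM in the pineal gland against 2.59 in the retina, and with RGD1560884, Cntn4, Plcb1 and Prkar2b, a regulatory subunit of protein kinase A. Crx ran with Gli2 (0.981), a transcription factor of Hedgehog signalling, Wipi2, Ptp4a3, Gdf15 and Otud4. Otx2 ran with Efna5 (0.975), an ephrin ligand, Tox3, Lrrtm2, Ceacam1 and Abhd2. Neurod1 ran with Pkig (0.965), an inhibitor of protein kinase A, Trim9, RGD1560220, RGD1307279 and Adcy1, an adenylyl cyclase.

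Among 16 other factors of the photoreceptor and retinal lineages that were tested, 15 differed between the tissues, against 68.9% of all genes. In the pineal gland 2 were higher and 13 lower, against 36.9% and 32.0% of all genes. The median of the 16 was -2.16 log2 units against 0.03 over all genes. The homeobox gene Lhx4 was at 232 ± 59.0 FPKM in the pineal gland (SD, n = 6) and 5.51 ± 0.536 in the retina, a difference of 5.13, and the retinoid receptor Rxrg was at 66.3 ± 13.7 and 1.59 ± 0.163. Lower in the pineal gland were, among others, the nuclear receptor Esrrb of rods (-5.78) and Samd7, a repressor in rods (-4.71). Against the mixed pools, Lhx4 (7.03) and Rxrg (3.75) were higher in the pineal gland and Esrrb (-3.14) lower. In the retina Rax (2.86), Samd7 (2.77) and Esrrb (2.64) were higher than in the mixed pools. Over the day in the pineal gland 4 of 15 passed the rhythm test (26.7%, near the 20.7% of all genes), namely Thrb, Mef2d, Lhx4 and Rxrg. Lhx4 peaked at ZT20.3 and was higher in late dark by 0.66 (adjusted p = 0.0106), as was Mef2d by 0.73 (adjusted p = 0.0254), which is a different course from Rxrg, with its peak at ZT7.47. Both late dark calls were lost without pineal ZT7 or ZT19, with the pineal gland fitted alone and with ZT15 in late dark, and that of Mef2d also without the filter and without pineal ZT13 or ZT23. The rhythm calls of all 4 were lost with the pineal gland fitted alone, those of Thrb, Mef2d and Lhx4 without pineal ZT23, those of Mef2d and Lhx4 without pineal ZT13 or ZT19, and that of Mef2d also without the filter, retina ZT1 or retina ZT13. In the retina 1 of 15 passed the rhythm test, as did 1.02% of all genes. It was Esrrb, with a peak at ZT23.1 and a peak to trough difference of 1.11 (adjusted p = 0.0196). That call was lost with a pseudocount of 0.1 and without retina ZT1, ZT7, ZT13, ZT15 or ZT23.

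Most close relatives of the 5 genes were low in both tissues. Otx1, the other Otx gene, was at 1.15 ± 0.391 FPKM in the pineal gland against 1.46 ± 0.496 in the retina (SD, n = 6). Of the large Maf genes, Maf was at 2.26 ± 0.564 in the pineal gland against 2.60 ± 0.134 in the retina, and the small Maf genes Mafg, at 10.4 ± 2.25 and 15.5 ± 4.81, and Mafk, at 2.87 ± 0.133 and 1.76 ± 0.383, were the others to reach 5 FPKM in any library. Mafg was lower in the pineal gland (-0.50, adjusted p = 0.0232), a call lost without pineal ZT13, retina ZT19 or retina ZT23, and Mafk was higher (0.50, adjusted p = 0.000885). Neurod2, at most 0.537 FPKM in pineal libraries, was lower in the pineal gland (-1.34, with a range of -2.94 to -1.12 over 21 alternatives). So was Neurod6 (-0.20), which was at most 0.221 FPKM in either tissue and met the filter only through the mixed libraries, so its difference is not read. Its call was lost without pineal ZT1, pineal ZT7, retina ZT7, retina ZT19 or retina ZT23, and with time of day as a block (adjusted p = 0.0536). Of 8 relatives tested, 4 thus passed between the tissues with Neurod6 counted, below the 68.9% of all genes that did. None of 6 passed a test over the day in limma, where 20.7% of genes passed for pineal and 1.02% for retina rhythm. Neurog3 was listed at 0 in all 12 libraries, and Atoh1 and Atoh7 in all 6 pineal libraries. Neurod6 and Neurod2, markers of brain neurons, were lower in the pineal gland than in the mixed pools by 2.08 and 1.59 log2 units, as were Maf (-1.37) and Mafk (-1.08). Neurod6, Mafk and Maf were lower in the retina than there as well (-1.89, -1.58 and -1.21), and Otx1 was higher (0.84). The mixed libraries alone brought Neurod6 through the filter, so its differences from them only describe levels.

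The E proteins that pair with Neurod factors were expressed in both tissues. Tcf12 was higher in the pineal gland, at 22.4 ± 1.79 FPKM against 12.8 ± 1.21 in the retina (SD, n = 6), a difference of 0.76 log2 units. Of the inhibitors, Id3 (0.97) and Id1 (1.06) were higher in the pineal gland and Hes5, a Notch target of glia and progenitors, was lower (-1.86). Of 11 such partners and inhibitors, 3 were higher and 4 lower, together 63.6%, near the 68.9% of all genes. Id1, whose product keeps E proteins from binding DNA, passed the pineal rhythm test with a peak at ZT22.4 and a peak to trough difference of 1.05 (adjusted p = 0.022), a call lost without pineal ZT23. It was the 1 of 11 to do so, and its rhythm differed between the tissues (1.69, adjusted p = 0.0301), a call lost without the filter, without pineal ZT13 or ZT23 and without retina ZT1, ZT7, ZT13 or ZT23. Id2 (-1.76), Hes1 (-1.31) and Hey1 (-1.09) were lower in the pineal gland than in the mixed pools and Tcf12 was higher (1.07). In the retina Id1 (-1.72), Id2 (-1.60) and Hey1 (-0.89) were lower than there and Hes5 (0.81) higher, the call of Hey1 being lost with quantile normalization.

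Of 5 cofactors reported to bind Crx or Nrl, 4 were lower in the pineal gland than in the retina and none was higher, against 32.0% and 36.9% of all genes. These were Sp4 (-1.08), Sp1 (-0.58), the acetyltransferase Crebbp (-0.54) and Kat2a (-0.24), a call lost when pineal ZT19 or ZT23 or retina ZT7, ZT13, ZT15 or ZT19 was left out. Pias3, which modifies Nrl's partners in rods, was higher than in the mixed pools in both tissues (pineal 1.05, retina 0.82). It passed the pineal rhythm test at an adjusted p of 0.0496, which was lost under 13 of 18 alternatives. Sp4 was higher than in the mixed pools in both tissues (0.57 and 1.65), Kat2a was lower in the pineal gland (-0.34) and Sp1 (0.37) and Crebbp (0.36) were higher in the retina. Sp4 in the pineal gland and Pias3 and Crebbp in the retina lost their calls without mixed ZT19, Sp1 without mixed ZT7, and Kat2a without either mixed library or pineal ZT23, with quantile normalization and with time of day as a block (adjusted p = 0.0525).

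Genes known as targets of Crx and Nrl were divided between the tissues. Of all genes tested, 36.9% were higher and 32.0% lower in the pineal gland than in the retina. Of 26 rod genes, 24 were lower in the pineal gland and none higher, among them transducin alpha Gnat1 (-10.30), recoverin Rcvrn (-8.32) and Pde6b (-8.12). Some rod genes were nevertheless abundant there, such as Rbp3 at 476 ± 103 FPKM against 423 ± 24.1 in the retina (SD, n = 6). Of 8 cone genes, 5 were higher in the pineal gland, among them Gngt2 (4.92), Pde6c (4.32) and Gnb3 (3.81), and 3 were lower, among them the opsin Opn1mw (-3.97). All 4 genes of melatonin synthesis were higher in the pineal gland, with Tph1 at 11.25, Ddc at 7.28, Asmt at 5.38 and Aanat at 5.05. The rod list had a median of -2.46 log2 units, the cone list 2.37 and the melatonin list 6.33.

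Over the day in the pineal gland 12 of 26 rod genes passed the rhythm test (46.2%, against 20.7% of all genes), 2 of 8 cone genes and 3 of 4 melatonin genes. The filter ran over both tissues together, so these shares count genes near 0 in the pineal gland, such as Pde6b (at most 0.760 FPKM). They are therefore not read as a result about the rod genes. Pdc peaked at ZT10.4 (3.21 log2 units, peak to trough), Sag at ZT13.0 (2.80), Cnga1 at ZT9.49 (1.74), Guca1a at ZT12.2 (1.64), Opn1sw at ZT8.36 (2.08) and Pde6c at ZT15.6 (0.80). Aanat peaked at ZT22.4 (8.79), Ddc at ZT18.1 (0.78) and Asmt at ZT23.8 (0.76). The calls of Asmt, Ddc and Pde6c were lost with the pineal gland fitted alone, that of Ddc also with a pseudocount of 0.1, and that of Asmt also with quantile normalization and without pineal ZT13 or ZT23. Of the factors themselves, Neurod4 had its fitted peak at ZT12.9, and its rhythm passed. The peaks of Neurod1 (ZT9.72), Otx2 (ZT16.1) and Crx (ZT22.2) belong to rhythms that did not pass. Those of Neurod4 and Neurod1 lay within the range of the rod genes named here. That of Otx2 lay between Pde6c and Ddc, and that of Crx beside Aanat. Only some of the passing rod genes are named, and a link between the peaks of factors and targets was not tested. In late dark Pdc (-2.12), Cnga1 (-1.20), Guca1b (-0.77), Aipl1 (-0.65) and Opn1sw (-1.35) were lower than in light, and each of these calls was lost with the pineal gland fitted alone and with ZT15 grouped with late dark. The call of Cnga1 was also lost without pineal ZT19, those of Pdc without pineal ZT7, ZT13 or ZT23, of Opn1sw without pineal ZT7, ZT13 or ZT19, and those of Guca1b and Aipl1 without pineal ZT7, ZT13, ZT19 or ZT23 or without retina ZT19 or ZT23. The calls of Pdc, Opn1sw, Guca1b and Aipl1 were also lost without the filter on low values. Aipl1 further lost its call without retina ZT1 or ZT13, with a pseudocount of 0.1, with quantile normalization and with median ratio scaling. In all, 14 of 19 alternatives ended the call of Aipl1. In the retina 1 of 26 rod genes passed the rhythm test (3.85%, against 1.02% of all genes). It was Kcnv2 (1.87, adjusted p = 0.0251), a call lost when any 1 retina library was left out, with a pseudocount of 0.1 and without the filter.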

How the data were processed

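RNA of 14 libraries was sequenced as paired ends after polyA selection and random priming, per the labels' protocols, and the build rn4 and the tools Cufflinks 1.2.0 and TopHat 1.3.1 are named, without roles, in the submitters' processing notes. The authors deposited FPKM values per RefSeq transcript and library, with no counts, so depth is known only as the estimate from low values, and the sources used here do not say whether reads keep strand. A value of 0 is given as listed.

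FPKM was summed per gene ID. Tests were two-sided and run in R 4.3.3 by limma 3.58.1 on log2(FPKM + 1), with empirical Bayes moderation that follows a mean-variance trend, Benjamini-Hochberg adjustment and a threshold of 0.05. Genes had to reach 1 FPKM in 2 or more of the libraries fitted, so a gene can enter a pineal test over the day through its retina values alone. A pseudocount of 1 understates the change of low genes. Rhythm used a 24-h cosine and sine per tissue, and the late dark contrast gave ZT15 its own mean, both on 12 libraries with 6 residual degrees of freedom. The tissue fit used 14 libraries with 11. The fits were tested on simulated data.

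The 5 genes and all lists were chosen with earlier results of these data known. Of each list and comparison, up to 4 passing genes with the largest difference are named, and family relatives of at least 5 FPKM. A few genes that these rules would name are not reported here. Of 146 list genes, 131 were matched, and the others were not analysed here. Alternatives were another pseudocount, no filter, 2 scalings, no trend, single tissues, ZT15 grouped with late dark, no mixed libraries, a replicate block and leaving out each library.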

Additional observations from a re-analysis of the deposited data

Results flagged for a closer look

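Within 6 libraries of a tissue, some named genes had 1 library whose distance to the nearest other was a large part of the whole range (Dixon's 95% limit), in 9 of 108 groups tested, where chance gives about 1 in 20. Among the factors this was Neurod4 in the retina at ZT7, at 58.3 FPKM with the next at 48.9. The retina library of ZT7 was also high for Pdc (1098 FPKM, next 989). In the retina Gnb3 was high at ZT19 (62.97 FPKM) and Maf was low at ZT23 (2.34 FPKM). In the pineal gland Pde6b (0.760 FPKM) was highest at ZT15, Kcnv2 (2.43 FPKM) and Neurod2 (0.537 FPKM) at ZT19, Esrrb (0.139 FPKM) at ZT23 and Neurod6 (0.0536 FPKM) at ZT13, all of them low levels.

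In limma, 7 genes are named for passing the test of a rhythm difference between pineal gland and retina, so their number follows from that choice. Of all genes tested, 4.95% passed it. The adjusted p was 0.000325 for Sag, 0.0107 for Opn1sw, 0.0141 for Aanat, 0.0301 for Id1, 0.0338 for Rcvrn, 0.041 for Guca1a and 0.0464 for Pdc. Leaving out retina ZT1, ZT13 or ZT23 ended the calls of Aanat, Id1, Rcvrn, Guca1a and Pdc. The last 4 of these were also lost without retina ZT7 or pineal ZT13, the last 3 without retina ZT15, retina ZT19 or pineal ZT15, Id1 and Guca1a without pineal ZT23 and Rcvrn without pineal ZT1. Of 17 alternatives in all, 12 ended the call of Rcvrn, 11 each those of Guca1a and Pdc, 7 that of Id1, 4 that of Aanat and none those of Sag and Opn1sw. Of the 4 factors expressed in the pineal gland none passed this test, and 2 did at an unadjusted p below 0.05.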

How the results depend on the processing

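Of 37 results on the 5 factors, 24 kept their call and direction under every alternative run, among them all differences from the mixed pools and the Nrl and Neurod4 differences between the tissues. Those named are the passed results among the 24, and the others passed under no setting. For rhythms that had not passed, the direction was not compared. The number of factors with a pineal rhythm was 0 in place of 1 without the filter, with median ratio scaling and with the pineal gland alone. That with a late dark difference in the pineal gland was 1 in place of 0 with quantile normalization, median ratio scaling or no trend. Leaving out single libraries gave 0 to 3 factors for pineal rhythm, 0 to 1 for the rhythm difference, 0 to 1 for pineal late dark and 3 to 4 of 5 between the tissues.

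Over all genes, pineal rhythm passed for 2160, 535 with the pineal gland alone and 889 to 2620 with 1 library left out. Retina rhythm passed for 106, for 58 with a pseudocount of 0.1, 64 without the filter, 179 with quantile normalization, 781 with the retina alone and 12 to 415 with 1 library left out. The rhythm difference passed for 516, 324 without the filter and 178 to 828 with 1 library left out. Pineal late dark passed for 758, 477 without the filter, 121 with the pineal gland alone, 0 with ZT15 in late dark and 163 to 1600 with 1 library left out. Retina late dark passed for 1, for 0 with a pseudocount of 0.1 or ZT15 in late dark, 5 without the filter and 0 to 74 with 1 library left out.

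Reversals, all of values that had not passed, lay in the late dark contrasts but for Otx2 between the tissues (-0.084 with quantile normalization). In the rhythm results a shift of the peak was counted as a reversal only where the main result had passed. Rhythms that had not passed could therefore show none. In the pineal gland Neurod4 was 0.028 with ZT15 in late dark. With 1 library left out, Otx2 ranged from -0.29 (without ZT19) to 0.65 and Neurod4 from -0.85 to 0.46 (without ZT23). In the retina Otx2 was 0.16, Nrl 0.078 and Neurod4 0.063 with median ratio scaling, and Otx2 was 0.013 with ZT15 in late dark. With 1 library left out, Otx2 ranged from -0.053 to 0.045 (without ZT19; 0.027 without ZT7), Nrl from -0.33 to 0.16 (without ZT23; 0.00056 without ZT13) and Neurod4 from -0.16 to 0.0063 (without ZT7). The cause was not tested.

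Same-time pineal and retina libraries share the time of day and no stated animals. Their deviations from the tissue means correlated at 0.049 to 0.270 over 10416 genes, above 0.1 in 5 of 6 pairs, and 7 of 12 libraries correlated best with their own time. With time of day as a replicate block, 8226 genes in place of 8030 differed between the tissues, and no call of the 5 factors changed. Of other named genes, 8 of 31 results over the day and 71 of 81 between tissues kept their calls throughout. At 1 library per time, the estimate of the spread limits every result over the day.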
